A study of Mus musculus with 19 samples.

Results

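The mouse GIMAP family was followed through 8 genes in regulatory T cells (Tregs). They were chosen by symbol (GIMAP1, GIMAP3, GIMAP4, GIMAP5, GIMAP6, GIMAP7, GIMAP8 and GIMAP9, as the table writes Gimap1 to Gimap9) from the 24982 genes in the table of counts, and all 8 passed the filter on low counts that left 11464 genes. No measured value entered the symbol match, but the family was selected on earlier results of these same counts, its fold changes between the 4 groups among them, so its levels and fold changes are a description and its counts are no independent evidence. Each library was made from 50000 CD4+FoxP3-GFP+ cells sorted from the axillary, brachial and inguinal lymph nodes of Foxp3DTR mice, in which the Foxp3 locus also encodes a diphtheria toxin receptor fused to GFP. All 4 groups share this genotype. They were CD44high Tregs of uninjured mice (n = 4 libraries), CD44low Tregs of uninjured mice (n = 5), CD44high Tregs at 7 days after injury (n = 4) and CD44low Tregs at 7 days after injury (n = 6). Uninjured mice had a sham procedure, and injured mice a burn of 20% of the body surface in a bath of 90 °C for 9 seconds. Mice were 8 to 16 weeks old. The labels do not say whether a sample holds cells of 1 mouse or of several, so p-values measure the spread between these libraries, which may in part be technical. Injured CD44low libraries 1_2 and 5_2 repeat the first numbers of libraries 1 and 5, so these may not be independent replicates.

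GIMAP proteins, the GTPases of immunity-associated proteins, are GTP-binding proteins found mostly in lymphocytes, where they sit on or near intracellular membranes. The family is best known for keeping resting T and B cells alive. Several members have been tied to the Bcl2 family, which sets the mitochondrial step of apoptosis, and to autophagy. The genes lie side by side in 1 cluster.

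In GRCm38, with GENCODE vM21 gene models, the cluster spans chr6:48647234-48770851 (123.6 kb), in the order Gimap8, Gimap9, Gimap4, Gimap6, Gimap7, Gimap1, Gimap5 and Gimap3. Gimap6 and Gimap3 lie on the minus strand and the other 6 genes on the plus strand. Gaps between neighbours run from 2401 bases (Gimap1 to Gimap5) to 15253 bases (Gimap8 to Gimap9). The submitters' processing notes name both mm9 and mm10, so these positions describe the reference and not necessarily the gene models that were counted. Gimap1 overlaps an antisense gene, Gimap1os, and Gimap7, Gimap1 and Gimap5 share exon bases with a readthrough gene, Gm28053. Neither gene is listed in the table. Of the 50-base words in Gimap1 transcripts, 33.9% also lie on the opposite strand of another gene. No source used here gives the strand setting of the counting, so sense and antisense reads at Gimap1 cannot be told apart. Gimap3 and Gimap5 share 7.52% and 4.53% of their 50-base words with each other, and the other 6 members share none within the family.

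Promoters are shown for the 2 members that rose most with injury in CD44high Tregs (Gimap4 and Gimap7), the member that fell in CD44low Tregs (Gimap8, first of its 2 starts) and a member with no call in any comparison (Gimap1). Each run holds the 250 bases before a RefSeq start in GRCm38.p6. Capitals mark exact matches, on either strand, to ETS GGAAG, RUNX TGTGGT, KLF CCACCC, FOXO TGTTTAC or TCF/LEF CTTTGA.
Gimap4, chr6:48684328-48684577, plus strand: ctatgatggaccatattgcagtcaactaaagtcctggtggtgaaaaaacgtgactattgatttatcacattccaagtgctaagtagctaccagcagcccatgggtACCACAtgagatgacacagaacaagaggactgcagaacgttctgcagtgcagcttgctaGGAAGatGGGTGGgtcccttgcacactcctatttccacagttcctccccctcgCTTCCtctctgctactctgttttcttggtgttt
Gimap7, chr6:48718371-48718620, plus strand: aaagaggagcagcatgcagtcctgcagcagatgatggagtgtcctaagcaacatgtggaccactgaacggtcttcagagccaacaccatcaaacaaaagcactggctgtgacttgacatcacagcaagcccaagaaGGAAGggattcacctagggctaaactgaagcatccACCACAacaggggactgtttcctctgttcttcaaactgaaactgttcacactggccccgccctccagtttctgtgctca
Gimap8, chr6:48646984-48647233, plus strand: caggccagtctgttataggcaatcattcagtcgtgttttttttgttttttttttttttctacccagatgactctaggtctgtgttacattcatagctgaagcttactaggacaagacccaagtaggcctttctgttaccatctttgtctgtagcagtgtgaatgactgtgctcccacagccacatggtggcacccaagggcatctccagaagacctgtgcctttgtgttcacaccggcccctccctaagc
Gimap1, chr6:48738797-48739046, plus strand: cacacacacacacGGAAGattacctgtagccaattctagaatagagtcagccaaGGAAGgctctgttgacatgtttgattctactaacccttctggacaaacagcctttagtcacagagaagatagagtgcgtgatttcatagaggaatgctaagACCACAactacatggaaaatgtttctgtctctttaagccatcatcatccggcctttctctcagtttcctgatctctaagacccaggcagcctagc

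The search itself covered 300 bases, from 250 before to 50 after the start, so matches after a start are not in the printed runs. For Gimap1, Gimap4 and Gimap6, the 50 bases after the RefSeq start were not found as an unbroken run in a GENCODE vM21 transcript. Their starts may therefore differ between the sources. The ETS letters were in a promoter of all 8 members and in 71.4% of all 32851 promoters of this length. The RUNX letters were in Gimap1, Gimap4 and Gimap7, against 16.8% of all promoters. The TCF/LEF letters were in 2 of 9 member promoters, those of Gimap4 and Gimap7, against 16% of all promoters. They lay 26 and 43 bases after the start. The KLF letters were in 5 members, Gimap3, Gimap4, Gimap5, Gimap8 and Gimap9 (31.5% of all promoters), and the FOXO letters in 1, Gimap3 (3.65%). Gimap8 held its KLF match at its second start, not in the run shown. A match is a string of letters and was not tested as a binding site.

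Counts behind the members were high. The lowest was 331, for Gimap7 in an uninjured CD44high library, and the highest 15076, for Gimap3 in an injured CD44low library, in libraries of 5582234 to 9433610 counts. Levels are given as CPM, counts scaled to a common library total with TMM factors, as mean ± SD. Cd44, the gene of the sorted surface protein, was 594 ± 37.5 CPM in uninjured CD44high and 133 ± 16.1 in uninjured CD44low Tregs. Cd4 (mean 695 to 856 CPM by group), Foxp3 (70.6 to 115) and Il2ra (403 to 833) were present in every group. Markers of endothelial cells (6 genes) summed to 56.1 to 71.2 CPM in uninjured CD44high, 186 to 219 in uninjured CD44low, 78.4 to 111 in injured CD44high and 135 to 230 in injured CD44low Tregs, and so moved with the groups as many GIMAP genes did. Nearly all of this was Pecam1, an adhesion gene that T cells also express (60.7 ± 6.78, 201 ± 14, 97.8 ± 15.2 and 192 ± 34.1 CPM), while 10 counts of Cdh5, 7 of Vwf and 0 of Tek were found over all 19 libraries. Summed markers of macrophages and dendritic cells (6 genes) were higher in CD44high than in CD44low Tregs of uninjured mice, at 64.1 to 134 against 19.7 to 37.2 CPM, and all 5 of these genes that were tested passed there. In injured mice the ranges were 81.4 to 222 and 31.5 to 142 CPM. B cell markers (7 genes) summed to 110 to 220 CPM in uninjured CD44high and 81.3 to 158 in uninjured CD44low Tregs. In injured mice their ranges were 159 to 283 and 118 to 218 CPM. Of these 7 genes, 1 was called higher and 0 lower after injury in CD44high Tregs (1.06% and 1.33% of all genes). Markers of CD8 T and NK cells (5 genes) summed to 48.9 to 74 CPM over the libraries. Stromal markers (5 genes) summed to 3.03 to 3.93 CPM in uninjured CD44high and 0 to 1.09 in uninjured CD44low Tregs. The part of these cells in the results below was not tested.

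As a share of all counts, the family took 0.183% ± 0.0131 in uninjured CD44high, 0.356% ± 0.0141 in uninjured CD44low, 0.288% ± 0.0463 in injured CD44high and 0.427% ± 0.0611 in injured CD44low Tregs. The 4 uninjured CD44high libraries (0.17 to 0.195%) lay below those of every other group. Injured CD44high libraries ran from 0.245 to 0.353%, and the highest of them was above the lowest uninjured CD44low library (0.334%). Fewer GIMAP-rich cells and less GIMAP RNA per cell cannot be told apart in sorted bulk samples.

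**Figure D1:**
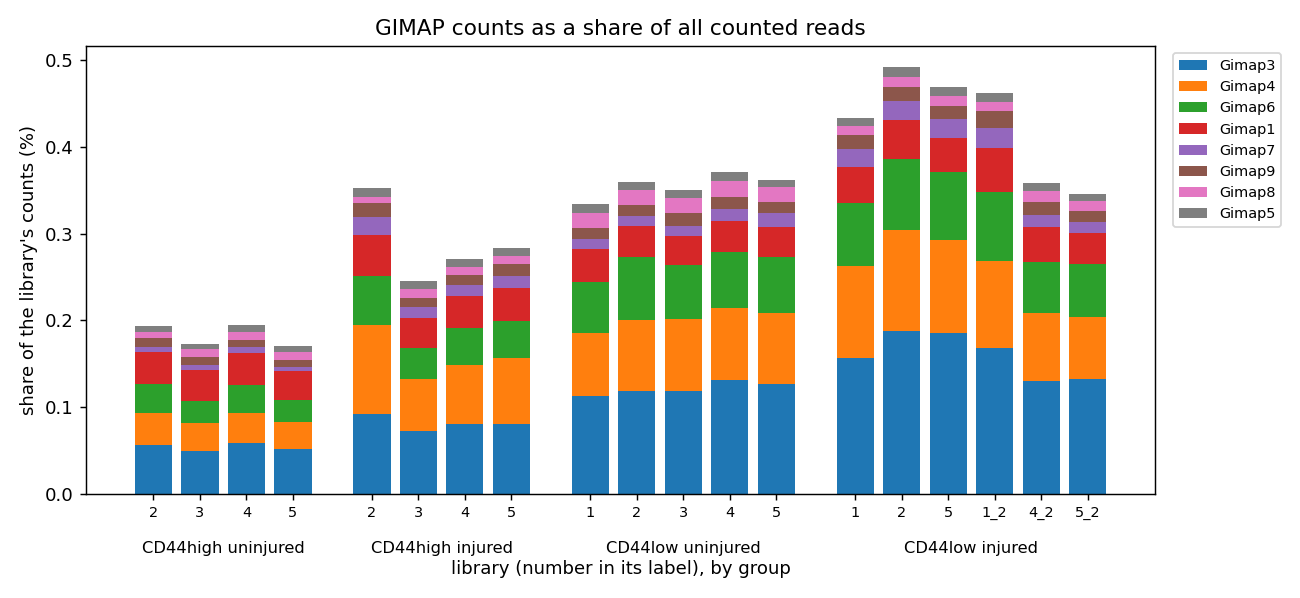
Share of each library's counts (%, vertical axis) that fell on the 8 GIMAP genes, stacked by gene, for the 19 libraries by group. The uninjured CD44high libraries are the lowest, at 0.17 to 0.195%, and injured CD44low library 2 reaches 0.492%.

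The make-up of the family also differed between groups. By group mean Gimap3 was the largest part in all 4 groups, from 28.4% ± 1.6 of the family's counts in injured CD44high to 37.5% ± 1.5 in injured CD44low Tregs. Gimap1 made up 19.5% ± 0.78 in uninjured CD44high Tregs and 10% ± 0.88 in uninjured CD44low Tregs. Gimap4 went from 18.3% ± 0.54 in uninjured to 26.3% ± 1.9 in injured CD44high Tregs (28.9% against 26.2% for Gimap3 in library 2), while in CD44low Tregs it was 22.6% ± 0.68 and 22.5% ± 1.3. Gimap8 made up 4.9% ± 0.16 in uninjured and 2.7% ± 0.55 in injured CD44low Tregs. Per kilobase of exon, Gimap3 (621 ± 95.2 CPM per kb) and Gimap4 (524 ± 95.3) were the highest levels in injured CD44low Tregs. Gimap8 was the lowest per kilobase in all 4 groups, at 23.3 ± 2.16 in uninjured CD44high and 46.5 ± 1.65 in uninjured CD44low Tregs.

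The first comparison asked how CD44high and CD44low Tregs differed before injury. In CD44high Tregs 7 members were lower and 1, Gimap1, did not pass (edgeR's quasi-likelihood test, Benjamini-Hochberg adjusted p under 0.05 over 11464 genes). Of all genes tested, 21.3% were called lower. The 7 members also had no overlap between the groups' libraries, against 18.8% of all genes lower without overlap. No member was higher by the call (24.7% of all genes) or without overlap (21.9%), and 0 were so in DESeq2 or at an unadjusted edgeR p under 0.05. The median log2 fold change was -1.05 over the members and 0.01 over all genes.

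Gimap3, whose protein binds Bcl2 family proteins, stood at 573, 506, 597 and 532 CPM in CD44high and at 1112, 1155, 1171, 1292 and 1268 CPM in CD44low Tregs. Every CD44high library was below every CD44low library. The log2 fold change was -1.12 ± 0.112 (SE, edgeR adjusted p = 1.87e-08). Gimap4, linked to the pace of T cell apoptosis, stood at 370, 334, 350 and 313 CPM in CD44high and at 723, 795, 825, 822 and 809 CPM in CD44low Tregs. It had the most negative log2 fold change of the 8, -1.22 ± 0.143 (edgeR adjusted p = 2.44e-07), and its groups were far apart.

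Gimap6, whose protein binds the autophagy protein GABARAPL2, was 298 ± 38.1 against 638 ± 48.9 CPM. Its log2 fold change was -1.10 ± 0.132 (edgeR adjusted p = 3.08e-07). Gimap7 was 58.8 ± 7.84 against 127 ± 20.2 CPM, a log2 fold change of -1.11 ± 0.188 (edgeR adjusted p = 4.27e-05). Gimap8, a large member with more than 1 GTP-binding domain, stood at 75.2, 84.9, 91.2 and 92.9 CPM in CD44high and at 167, 168, 174, 182 and 169 CPM in CD44low Tregs. Its level was 2-fold higher in CD44low Tregs, with a log2 fold change of -1.0 ± 0.105 for CD44high over CD44low (edgeR adjusted p = 3.96e-08).

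Gimap5 and Gimap9 showed smaller differences. Gimap5, whose loss shortens the life of peripheral T cells, was 72.6 ± 6.71 in CD44high and 96.1 ± 5.75 CPM in CD44low Tregs (log2 fold change -0.41 ± 0.108, edgeR adjusted p = 0.00377). Gimap9 was 93.7 ± 7.69 and 131 ± 9.61 CPM (log2 fold change -0.49 ± 0.127, edgeR adjusted p = 0.00307). Gimap1, needed for mature lymphocytes to persist, was 363 ± 17.4 and 352 ± 20.2 CPM. Its log2 fold change was 0.05 ± 0.112 (edgeR adjusted p = 0.761), with overlapping libraries, and -0.11 when each library's trend on transcript length was taken out.

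**Figure D2:**
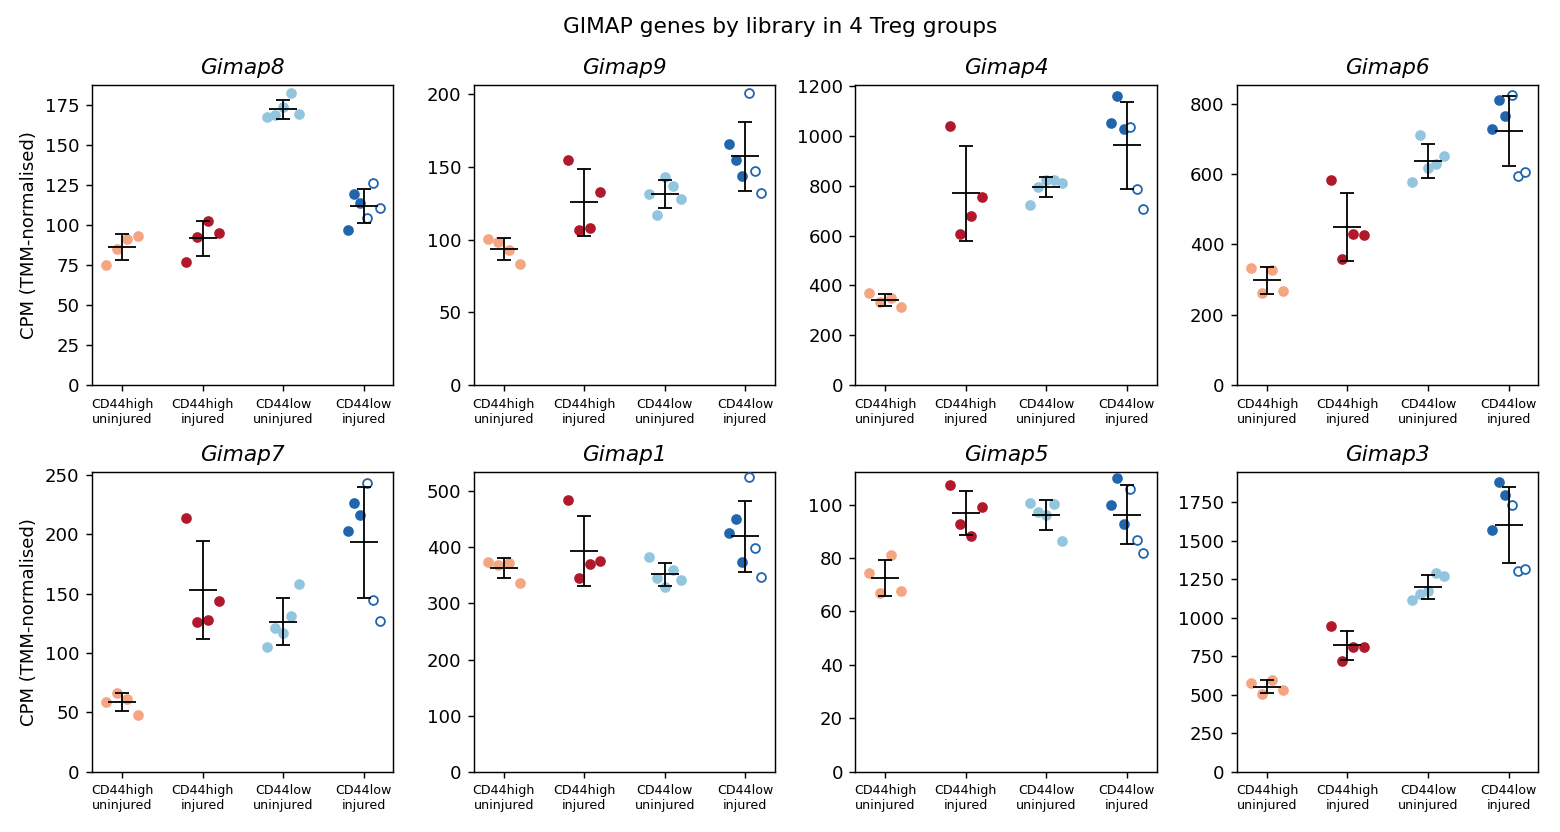
Level of each GIMAP gene (CPM after TMM scaling, vertical axis from 0) in the 19 libraries of the 4 groups. Points are libraries, open points the injured CD44low libraries 1_2, 4_2 and 5_2, and bars the mean ± SD. All genes but Gimap1 are lower in uninjured CD44high than in uninjured CD44low Tregs, where Gimap1 is at 363 and 352.

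In injured mice, 4 members were lower in CD44high Tregs, against 17.2% of all genes tested. They were Gimap3, Gimap6, Gimap8 and Gimap9. Libraries of the groups did not overlap for 2 of them, Gimap3 and Gimap6, against 9.2% of all genes. No member was higher by the call (20.1% of all genes) or without overlap (15.6%), nor in DESeq2 (0) or at an unadjusted edgeR p under 0.05 (0). The median log2 fold change was -0.32 over the members and 0 over all genes.

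Gimap3 stood at 947, 717, 807 and 807 CPM in CD44high libraries, and in CD44low libraries the lowest was 1303, the median 1652 and the highest 1878 CPM. The log2 fold change was -0.96 ± 0.108 (edgeR adjusted p = 1.57e-07). Gimap6 was 450 ± 95.4 against 722 ± 100 CPM, a log2 fold change of -0.68 ± 0.126 (edgeR adjusted p = 0.00014). Both genes kept a gap between the subsets after injury. Gimap8 was 91.6 ± 10.8 against 112 ± 10.5 CPM (log2 fold change -0.29 ± 0.0995, edgeR adjusted p = 0.0254), and its libraries overlapped. Gimap9 was 126 ± 22.9 against 157 ± 24 CPM (log2 fold change -0.32 ± 0.121, edgeR adjusted p = 0.0376), also with overlap. Calls of Gimap8 and Gimap9 ended in a fit of the compared groups alone, at edgeR adjusted p of 0.0549 and 0.076. They also ended without libraries 1_2, 4_2 and 5_2, at 0.0765 and 0.0681, and that of Gimap9 ended with these in place of 1, 2 and 5 (0.0524) or summed with the library of the same first number (0.0505). Single libraries decided them as well: the edgeR adjusted p was 0.0794 for Gimap8 without CD44high library 2, and for Gimap9 it was 0.138, 0.143 and 0.056 without CD44high library 3, 4 or 5 and 0.0876 without CD44low library 1_2.

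Gimap4, Gimap7, Gimap5 and Gimap1 did not pass in injured mice. Gimap4 had a log2 fold change of -0.32 ± 0.135 (edgeR adjusted p = 0.0632) and Gimap7 one of -0.34 ± 0.174 (edgeR adjusted p = 0.131). These 2 values turned on injured CD44high library 2: without it they were -0.53 (edgeR adjusted p = 0.00227) and -0.57 (0.0134). Both also passed without CD44low library 5_2, at edgeR adjusted p of 0.0163 and 0.0378, and Gimap4 did so without library 4_2 (0.0338). Without libraries 1_2, 4_2 and 5_2 the values were -0.49 for Gimap4 (edgeR adjusted p = 0.005) and -0.49 for Gimap7 (0.0238), and with these in place of 1, 2 and 5 they were -0.15 (0.431) and -0.19 (0.506). DESeq2 called Gimap4 (-0.33, adjusted p = 0.048). Gimap5 had a log2 fold change of 0.01 ± 0.102 and Gimap1 one of -0.09 ± 0.108. With the trend on transcript length taken out, 7 of the 8 members were lower in CD44high Tregs of injured mice. That fit called 2235 of 11350 genes lower, against 1976 of 11464 in the main fit.

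The third comparison asked what injury changed in CD44high Tregs. The 4 members that rose were Gimap7, Gimap4, Gimap6 and Gimap3. Of all genes tested, 1.06% were called higher. A further count was 6 members with no overlap between injured and uninjured libraries with injured higher, against 5.91% of all genes, namely the 4 called genes, Gimap5 and Gimap9. No member fell by the call (1.33% of all genes) or without overlap (7.34%), and the count was also 0 in DESeq2 and at an unadjusted edgeR p under 0.05. The median log2 fold change was 0.5 over the members and -0.02 over all genes. Neutrophil markers (4 genes) moved with injury without overlap in these cells, from 0 to 0.178 CPM summed in uninjured to 1.06 to 19.5 in injured libraries, with 1 count of S100a8 and 1 of S100a9 over the 4 uninjured libraries, against 127 and 140 over the 4 injured ones, where Ly6g had 4. Their part in the result was not tested.

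Gimap4 went from 370, 334, 350 and 313 CPM in uninjured to 1041, 608, 678 and 753 CPM in injured CD44high libraries. Its lowest injured library was well above its highest uninjured library. The level was 2.25-fold higher (log2 fold change 1.17 ± 0.149, edgeR adjusted p = 7.96e-05). Of the 11464 genes, 6 had a smaller p, but the family was selected on these counts, so this rank is no independent evidence. Gimap7 went from 59, 66.6, 61.5 and 48.1 CPM to 214, 126, 128 and 144 CPM. This was 2.6-fold (log2 fold change 1.38 ± 0.196, edgeR adjusted p = 0.000217), the largest fold of the family, again with no overlap.

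Gimap3 rose from 552 ± 40.8 to 819 ± 95 CPM, a log2 fold change of 0.57 ± 0.116 (edgeR adjusted p = 0.00631). Gimap6 stood at 334, 261, 326 and 268 CPM in uninjured and at 583, 357, 430 and 427 CPM in injured libraries (log2 fold change 0.60 ± 0.136, edgeR adjusted p = 0.0171). The call of Gimap6 ended without injured library 2 (log2 fold change 0.46, edgeR adjusted p = 0.0758) and without uninjured library 3 (0.0702) or 5 (0.0615). Gimap5 had a log2 fold change of 0.42 ± 0.113 (edgeR adjusted p = 0.0502) and Gimap9 one of 0.42 ± 0.132 (edgeR adjusted p = 0.098). Gimap5 lay at the threshold: it passed in DESeq2 (adjusted p = 0.00911), which called 5 members higher, and in edgeR with the compared groups alone (0.0349), RLE factors (0.0499), the length trend taken out (0.0232), each of 3 other uses of libraries 1_2, 4_2 and 5_2 (0.0195 to 0.0408) and 11 of 19 fits that left out 1 library. Over all genes, DESeq2 called 197 of 10826 higher after injury in CD44high Tregs. Gimap9 passed without libraries 1_2, 4_2 and 5_2 (edgeR adjusted p = 0.0343). Gimap1 (0.12 ± 0.118) and Gimap8 (0.09 ± 0.109) were the members with the smallest values, and their libraries overlapped.

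**Figure D3:**
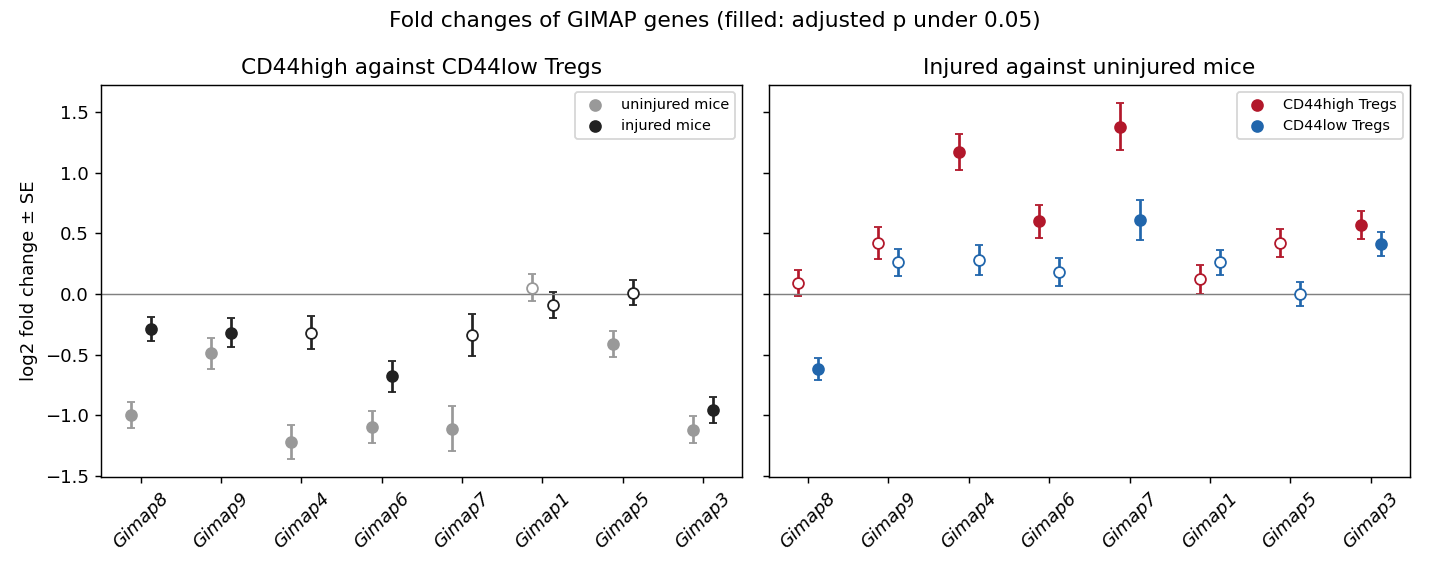
Log2 fold change ± SE (vertical axis) of the 8 GIMAP genes for CD44high against CD44low Tregs (left) and for injured against uninjured mice (right). Filled points passed an adjusted p of 0.05 in edgeR. On the right, Gimap4 and Gimap7 in CD44high Tregs lie highest, at 1.17 and 1.38, and Gimap8 in CD44low Tregs lies lowest, at -0.62.

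Injured CD44high library 2 stood apart within its group. It was the highest of the 4 libraries for 7 members and the lowest for Gimap8, with deviations from the group mean between -0.25 and 0.52 on the log2 scale. Over all genes with a length, its log2 CPM changed by -0.264 per doubling of transcript length relative to the mean of the libraries, the most negative slope of the 19 libraries. Gimap8, with 3700 bases of exon, is the longest member, and Gimap7, with 1269, the shortest. Without this library the log2 fold change after injury was 1.00 for Gimap4 (edgeR adjusted p = 0.000155) and 1.19 for Gimap7 (0.000795). With the length trend of every library taken out, the values were 1.11 for Gimap4 (2.8e-06) and 1.24 for Gimap7 (5.66e-05).

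**Figure D4:**
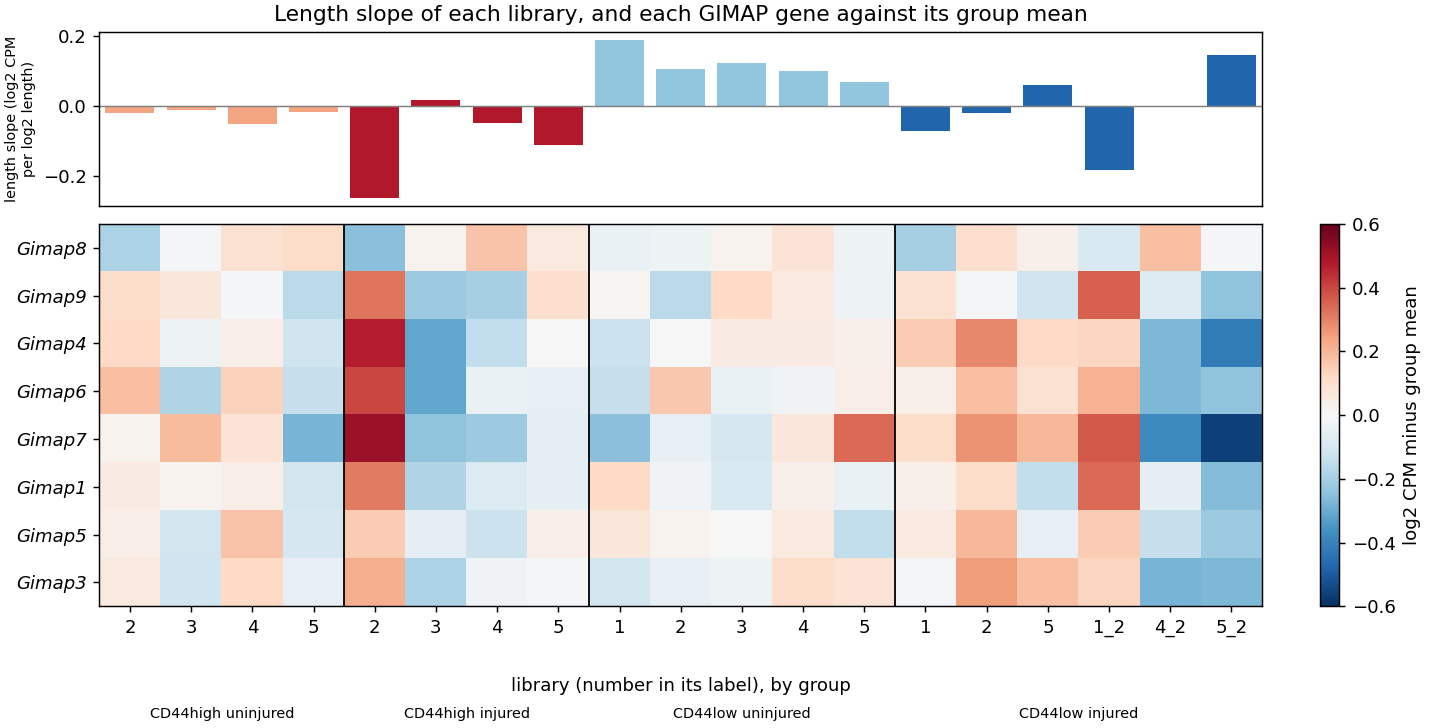
Upper panel: slope of log2 CPM on log2 transcript length over all genes, by library. Lower panel: log2 CPM of each GIMAP gene minus its group mean (colour), by library. Injured CD44high library 2, with the most negative slope (-0.264), is above its group mean for 7 genes and below it for Gimap8.

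In CD44low Tregs, 2 members rose after injury, Gimap3 and Gimap7, and 1 fell, Gimap8. Of all genes tested, 4.24% were called higher and 3.36% lower. Of the members, 1, Gimap3, had no overlap with injured higher (2.39% of all genes) and 1, Gimap8, with injured lower (2.29%). The median log2 fold change was 0.26 over the members and 0.01 over all genes. Neutrophil markers summed to 0 to 1.69 CPM in uninjured and 0 to 29.1 in injured CD44low libraries, with overlap, and their part was not tested.

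Gimap8 went from 167, 168, 174, 182 and 169 CPM in uninjured CD44low libraries to a lowest of 96.9, a median of 112 and a highest of 126 CPM in injured ones. Every injured library was below every uninjured one. The log2 fold change was -0.62 ± 0.0921 (edgeR adjusted p = 0.000402), and it ran from -0.64 to -0.56 over 28 other fits, with the call kept in each. The uninjured CD44low libraries had positive length slopes (0.069 to 0.188), while the injured ones ran from -0.183 to 0.145, and with that trend taken out the value was -0.58 (edgeR adjusted p = 0.000266).

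Gimap3 rose from 1199 ± 77.2 to 1599 ± 245 CPM (log2 fold change 0.41 ± 0.0991, edgeR adjusted p = 0.0143). Gimap7 rose from 127 ± 20.2 to 193 ± 46.7 CPM (log2 fold change 0.61 ± 0.164, edgeR adjusted p = 0.026), with overlap between the groups. Both calls depended on which injured CD44low libraries were used. The labels give 3 of the 6 a second number (1_2, 4_2 and 5_2) without saying what it means. With those 3 alone as the injured CD44low group, the log2 fold changes were 0.30 for Gimap3 (edgeR adjusted p = 0.107) and 0.46 for Gimap7 (0.175). With the other 3 alone they were 0.54 (0.000677) and 0.77 (0.00267). The call of Gimap7 also ended without uninjured library 1 (edgeR adjusted p = 0.0632) or injured library 1_2 (0.063).

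Libraries 4_2 and 5_2 were the 2 lowest injured CD44low libraries for Gimap3 (1303 and 1317 CPM), Gimap4 (787 and 708), Gimap6 (595 and 606), Gimap7 (145 and 127) and Gimap5 (86.8 and 81.9). Library 1_2 did not share this: it was the highest of the 6 for Gimap1, Gimap6, Gimap7 and Gimap9. Gimap4 had a log2 fold change of 0.28 ± 0.126 after injury in CD44low Tregs (edgeR adjusted p = 0.166), and Gimap1 one of 0.26 ± 0.101 (0.113). Without library 5_2 both passed, at 0.37 (edgeR adjusted p = 0.0372) and 0.33 (0.0306), which made 4 members higher. That fit called 1122 of 11456 genes higher, against 486 of 11464 in the main fit. Gimap9 (0.26 ± 0.113), Gimap6 (0.18 ± 0.116) and Gimap5 (0.00 ± 0.0965) did not pass.

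Whether injury acted differently in the 2 subsets was tested as an interaction. Of the members, 2 passed, both with the larger value in CD44high Tregs, against 0.192% of all genes called in that direction. No member passed in the other direction in edgeR (0.454% of all genes) or DESeq2, and 0 had an unadjusted edgeR p under 0.05 there. For Gimap4 the difference of the injury effects was 0.90 ± 0.193 on the log2 scale (edgeR adjusted p = 0.0245). Its effect was 1.17 in CD44high and 0.28 in CD44low Tregs. For Gimap8 the difference was 0.71 ± 0.143 (edgeR adjusted p = 0.0155), from 0.09 in CD44high and -0.62 in CD44low Tregs. Gimap8 fell in CD44low Tregs, so its positive interaction is not a rise in CD44high Tregs. The call of Gimap4 ended without uninjured CD44high library 3 (edgeR adjusted p = 0.0669), 4 (0.0517) or 5 (0.0727) or injured CD44high library 5 (0.0554), with differences between 0.84 and 0.91. That of Gimap8 ended without injured CD44high library 4 (0.65, edgeR adjusted p = 0.0504). It also ended with a block on the replicate number within injury status (0.63, edgeR adjusted p = 0.137). Gimap5 passed with the length trend taken out (0.50, edgeR adjusted p = 0.0495). Gimap7 had a difference of 0.77 ± 0.253 (edgeR adjusted p = 0.189) and did not pass, so its larger fold in CD44high Tregs was not shown to differ from that in CD44low Tregs.

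**Figure D5:**
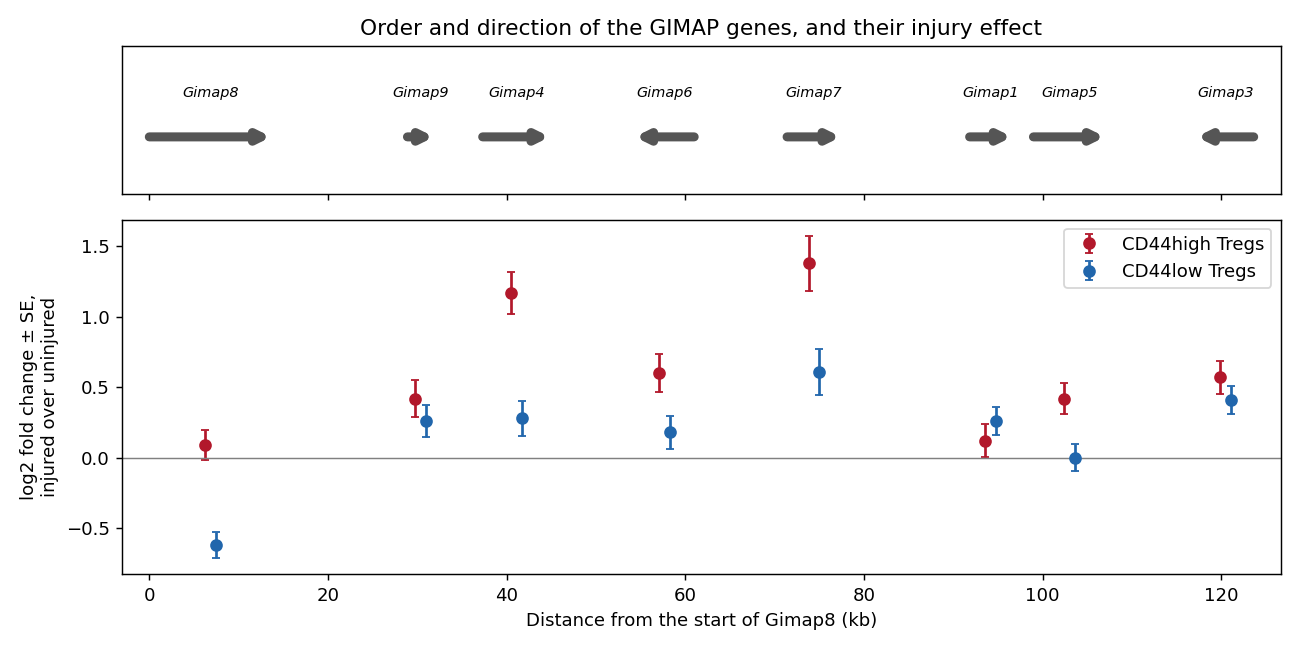
Upper panel: order and direction of the 8 genes by distance from the start of Gimap8 (kb). Lower panel: log2 fold change ± SE of injured over uninjured mice at each gene, in CD44high and CD44low Tregs. Gimap4 and Gimap7, with the highest values in CD44high Tregs, are separated by Gimap6 at 0.60.

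In the cluster, Gimap4 and Gimap7 lie either side of Gimap6, which had a value of 0.60, and Gimap1 (0.12 in CD44high Tregs) lies next to Gimap7 (1.38). Of the 3 RefSeq genes on each side of the cluster, only Zfp775 and AI854703, both before Gimap8, are in the table. Zfp775 had a log2 fold change of 0.01 ± 0.239 after injury in CD44high and -0.13 ± 0.2 in CD44low Tregs, and AI854703 had -0.13 ± 0.278 and -0.20 ± 0.235. Both were at 7.28 to 18.8 CPM by group. The protein-coding neighbour after Gimap3, Tmem176b, was named after its values were seen. It was 29.6 ± 11.3 CPM in uninjured CD44high and 10.4 ± 2.44 in uninjured CD44low Tregs, higher in CD44high Tregs (log2 fold change 1.51 ± 0.239, edgeR adjusted p = 1.72e-05) where 7 GIMAP genes were lower. In injured CD44high Tregs it was 15.7 ± 3.9 CPM. Zfp775 went the other way, at 12.3 ± 4.01 CPM in uninjured CD44high and 18.8 ± 4.82 in uninjured CD44low Tregs. Among 4 tested protein-coding neighbours on both sides, 3 were higher and 1 lower in uninjured CD44high Tregs (24.7% and 21.3% of all genes).

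Ordered by mean level, 7 members were lowest in uninjured CD44high Tregs, and Gimap1 was lowest in uninjured CD44low Tregs. Injured CD44low Tregs had the highest mean for 6 members, all but Gimap5 and Gimap8. Injured CD44high and uninjured CD44low Tregs, which differ in both sort and injury, were neighbours in this order for several genes. Gimap4 was 770 ± 190 CPM in the first and 795 ± 41.7 in the second (log2 difference of uninjured CD44low minus injured CD44high 0.05 ± 0.139, edgeR adjusted p = 0.803). Gimap7 (-0.27 ± 0.18), Gimap9 (0.06 ± 0.125), Gimap5 (-0.01 ± 0.107) and Gimap1 (-0.16 ± 0.111) also did not pass. Gimap3 (0.55 ± 0.11, edgeR adjusted p = 0.000266), Gimap6 (0.50 ± 0.129, 0.00254) and Gimap8 (0.91 ± 0.104, 1.75e-07) were still lower in injured CD44high than in uninjured CD44low Tregs.

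Genes of the pathways that GIMAP proteins are tied to were taken from lists chosen with earlier results of these data known. Among 5 tested inhibitors of apoptosis, 3 were higher and 2 lower in uninjured CD44high Tregs, against 24.7% and 21.3% of all genes, with a median log2 fold change of 1.03 (0.01 over all genes). Bcl2, the founding inhibitor, was 56.5 ± 6.01 CPM in CD44high and 631 ± 66.9 in CD44low Tregs (log2 fold change -3.48 ± 0.169, edgeR adjusted p = 5.42e-14). Bcl2l1, which encodes BCL-XL, was the other way round, at 201 ± 11.1 and 89.9 ± 12.5 CPM (1.16 ± 0.119, 2.65e-08). After injury in CD44high Tregs, 2 of the 5 rose (1.06% of all genes, with a median 0.21 against -0.02), Bcl2a1b (0.65 ± 0.151, edgeR adjusted p = 0.0187) and Bcl2a1d (0.97 ± 0.262, 0.0493), near-identical paralogs whose reads may be split. Bcl2 had a value of 0.21 ± 0.161 there and did not pass.

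Among 9 tested activators of apoptosis, 5 were higher and 1 lower in uninjured CD44high Tregs (24.7% and 21.3% of all genes), with a median of 0.82. Bcl2l11, which encodes BIM, was the lower one, at 35.3 ± 5.68 against 120 ± 14.9 CPM (log2 fold change -1.77 ± 0.205, edgeR adjusted p = 1.92e-07). Bad was higher (1.18 ± 0.174, edgeR adjusted p = 6.63e-06) and Bax had 0.24 ± 0.134 (0.156). None of the 9 passed after injury in CD44high Tregs by edgeR or DESeq2, with 1 higher and 2 lower at an unadjusted edgeR p under 0.05, and 2 rose in CD44low Tregs (4.24% of all genes), Bbc3 (1.08 ± 0.185, edgeR adjusted p = 0.00144) and Bad (0.71 ± 0.161, 0.00999). Of the 5 ATG8 genes of autophagy, none passed in edgeR after injury in either subset. At an unadjusted edgeR p under 0.05, 1 was higher in CD44high Tregs, and 3 were higher and 1 lower in CD44low Tregs, where DESeq2 called 1 higher. Gabarapl2, the partner of Gimap6, was 24.9 ± 1.38 CPM in uninjured and 34 ± 4.21 in injured CD44high Tregs (0.45 ± 0.16, edgeR adjusted p = 0.156).

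Of 12 genes of resting T cells, 11 were lower in uninjured CD44high Tregs (21.3% of all genes) and 11 in injured ones (17.2%), with median log2 fold changes of -1.25 and -1.11. Of the 12, 3 rose after injury in CD44high Tregs (1.06% of all genes, with a median of -0.02 over both the list and all genes), among them Satb1, a chromatin organiser of T cells (log2 fold change 1.56 ± 0.13, edgeR adjusted p = 2.26e-07), and Tcf7, a TCF/LEF factor of resting T cells (0.60 ± 0.0902, 0.000328). The other 9 did not pass. Among these, Klf2 (-0.39 ± 0.126, edgeR adjusted p = 0.106), Foxo1 (-0.35 ± 0.0946, 0.0506) and Foxp1 (-0.21 ± 0.103, 0.329) had negative values. The log2 fold changes of Gimap4 (1.17) and Gimap7 (1.38) lay between those of Tcf7 and Satb1, which rose and do not stand for the whole list. A link between Tcf7 and the TCF/LEF letters at Gimap4 and Gimap7 was not tested. Among 16 GTPases that interferon induces, another GTPase family of immune cells, none was higher by edgeR or DESeq2 (1 at an unadjusted edgeR p under 0.05) and 2 were lower after injury in CD44high Tregs (1.33% of all genes, with a median of -0.15 over the list), Gbp3 (-0.60 ± 0.121, edgeR adjusted p = 0.00631) and Iigp1 (-0.93 ± 0.198, 0.00904).

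The pattern of the family was taken as the median over its members of log2 CPM centred on each gene's mean. The members lay at root mean square distances from 0.153 (Gimap9) to 0.418 (Gimap8) from this median over 19 libraries. The other genes closest to it were Bzw2 (0.133), Fas (0.141), Rgs10 (0.164), Tspan13 (0.168), Tpd52 (0.172), Snap23 (0.173), Hdhd5 (0.18) and Saysd1 (0.185). Fas, the death receptor, was 46.7 CPM in uninjured CD44high, 80.6 in uninjured CD44low, 65.1 in injured CD44high and 97.4 in injured CD44low Tregs. Libraries and their scaling are shared by all these genes, and the likeness is a description of these 19 libraries.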

How the data were processed

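The authors deposited raw counts of reads per gene, made with STAR through the VIPER workflow, without normalization and with replicates apart. The submitters' processing notes name STAR 2.5, bcl2fastq 2.18 and the builds mm9 and mm10, with no role given. No source used here gives the annotation or strand setting. RNA of sorted cells was amplified as cDNA with SMART-Seq, cut to about 150 bases and sequenced, without molecular identifiers, so amplification adds to the spread.

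All 19 columns of counts were mapped to samples by their labels. The analysis ran in edgeR 4.0.16 (R 4.3.3, limma 3.58.1), with DESeq2 1.42.0 as an alternative, and plots were made in matplotlib 3.10.9 under Python 3.11.15. Genes had to pass filterByExpr (minimum count 10). TMM factors (0.97 to 1.04) and 1 mean per group were used for all 19 libraries, with no covariate. Tests were edgeR's quasi-likelihood test, two-sided, adjusted by Benjamini-Hochberg over 11464 genes. SE was the log2 fold change over the root of F. Log2 CPM used a prior count of 2. Gene lengths and positions came from GENCODE vM21, promoters from RefSeq GRCm38.p6, with lengths for 99% of tested genes. Protein sequences were not used here.

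The members and the 14 gene lists were chosen with earlier results of these data known. The text names every member, the genes flanking the cluster, fixed partners and sort markers, at most 4 genes of smallest p per list and comparison (1 of them is not reported here), and the 8 genes of nearest pattern. Alternatives were DESeq2, RLE factors, fits without the other groups (the compared groups alone), low counts kept in, a replicate block (also within injury status), a 2-fold threshold, other uses of libraries 1_2, 4_2 and 5_2, the length trend taken out, and each library left out.

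The test was tried on simulated data in which 200 of 11464 genes were changed 2-fold. The share found by edgeR was 72% for CD44high against CD44low Tregs of uninjured and 76.5% for those of injured mice, 72.5% for injury in CD44high, 77% for injury in CD44low and 41.5% for the interaction. In the same order it called 17, 11, 13, 11 and 8 unchanged genes. In every comparison these were a larger share of the calls than the 0.05 that the adjusted p threshold aims at.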

Additional observations from a re-analysis of the deposited data

Results flagged for a closer look

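The injury effects of 2 members differed between the subsets by the interaction test in edgeR, against 0.192% of all genes called in that direction. Gimap4 had a log2 difference of 0.90 (CD44high minus CD44low, adjusted p = 0.0245), with every injured CD44high library above every uninjured one. Gimap8 had 0.71 (adjusted p = 0.0155), with every injured CD44low library below every uninjured one. These gaps between libraries describe injury within 1 subset and not the interaction. With 1 library left out, Gimap4 passed the interaction test in 15 and Gimap8 in 18 of 19 fits. Gimap8 did not pass with a block on the replicate number within injury status (edgeR adjusted p = 0.137).

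In the 4 uninjured CD44high libraries, Gimap1 in library 5, at 337 CPM, lay below the other 3 (368 to 374). Dixon's test at 95% flagged it narrowly (0.835 against a critical value of 0.829). This was 1 of 32 groups of values tested, of which chance flags about 1 in 20.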

How the results depend on the processing

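Of 20 log2 fold changes of members that passed, none turned sign. They kept their call in 179 of 191 fits under other settings and in 365 of 380 that left out 1 library. Leaving out each library in turn gave 7 to 7 members lower in uninjured and 3 to 6 in injured CD44high Tregs, 3 to 5 higher after injury in CD44high, 1 to 4 higher and 1 to 1 lower in CD44low Tregs, and 1 to 2 for the interaction. Over all genes, these fits called 2120 to 2580 and 1567 to 2202 lower, and 78 to 166 higher after injury in CD44high Tregs. In CD44low Tregs they called 303 to 1122 higher and 175 to 771 lower, and 16 to 34 higher for the interaction. With a 2-fold threshold the counts were 4 and 0 lower in uninjured and injured CD44high Tregs, 2 higher after injury in CD44high, 0 higher and 0 lower in CD44low Tregs, and 0 for the interaction. Over all 11464 genes they were 922 and 558 lower, 36 higher, 82 higher and 61 lower, and 15 higher and 35 lower. In injured mice, 2 members were lower in CD44high Tregs with the compared groups alone and 7 with the length trend taken out. Of all genes, 1750 of 11079 and 2235 of 11350 were called lower in those fits. With libraries 1_2, 4_2 and 5_2 in place of 1, 2 and 5, 0 members rose in injured CD44low Tregs in edgeR. That fit called 303 of 11562 genes higher.

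Deviations of same-numbered libraries had correlations of -0.007 to 0.119 in uninjured and -0.054 to 0.167 in injured mice (4 pairs each). Other pairs ran from -0.08 to 0.039 (16 uninjured pairs) and from -0.452 to 0.41 (20 injured pairs). The highest uninjured values, 0.119 and 0.062, were of same-numbered pairs, so a weak pairing by number is not settled. The main fits did not take the labels' numbers as pairs. A replicate block left 1 member higher after injury in CD44low Tregs, and a block within injury status 1 for the interaction. Of all 11464 genes, 218 and 14 were called higher in those fits. The calls that ended with the block were those of Gimap7 after injury in CD44low Tregs (0.57, edgeR adjusted p = 0.0696) and Gimap9 in injured CD44high against CD44low Tregs (-0.26, 0.127). With the block within injury status they were those of Gimap9 in the same comparison (-0.15, 0.374) and Gimap8 in the interaction (0.63, 0.137). With the block, Gimap5 after injury in CD44low Tregs was -0.01, and with the block within injury status Gimap1 in injured CD44high against CD44low Tregs was 0.02.

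Other signs that turned were all of uncalled values near 0. Gimap5 in injured CD44high against CD44low Tregs was 0.00 with DESeq2 and RLE factors, -0.01 with the compared groups alone or no filter, -0.06 without libraries 1_2, 4_2 and 5_2, -0.08 with the length trend taken out, and -0.07 to 0.05 over the libraries left out. Gimap5 after injury in CD44low Tregs was -0.05 with libraries 1_2, 4_2 and 5_2 in place of the others, -0.11 with the length trend taken out, and -0.03 to 0.06 over the libraries left out. Gimap1 in uninjured CD44high against CD44low Tregs was -0.11 with the length trend taken out. The causes were not tested.

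Over all genes, DESeq2 called 477 after injury in CD44high, 1467 in CD44low Tregs and 210 for the interaction, against 273, 871 and 74 in edgeR.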
